A study of Mus musculus with 60 samples.

Results

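The 10 genes of actin-binding proteins described here are Cap1, Capg, Gsn, Lcp1, Pfn1, Cfl1, Coro1a, Arpc1b, Vil1 and Flna, measured in spleen leukocytes of young mice. Their members on the arrays are every probe set whose gene symbol, or an alias of it, in the annotation of the 430A and 430B arrays is 1 of these 10, and they came to 22 of 45037 probe sets. RNA was measured in 30 mice, 5 in each of 6 groups, from NOD, NON and C57BL/6 (C57) mice aged 2 weeks or 4 weeks. NOD is an inbred strain that develops autoimmune diabetes, in which immune cells first enter the pancreatic islets at about the older age. The other strains served as controls. NON has part of its ancestry in common with NOD and does not become diabetic, and C57BL/6 is a standard laboratory strain of other origin. All mice were untreated females with no transgene, and RNA was taken from whole spleen leukocytes that were neither sorted nor cultured. A spleen is a mixture of cell types, so fewer cells of a type and less RNA per cell cannot be told apart in any value given here. Whether the probes read the RNA of each strain equally well was not tested either. The genes were chosen by their known role in actin biology together with measured signals, since several of them were known to differ between these strains in the same data, so differences between strains are given below as a description with no p, and counts of strain calls by the F-test stand beside the share over all probe sets, while changes between the ages were not used for the choice and were tested.

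Actin is a small protein that leukocytes assemble into filaments and take apart again as they move, take up particles and form contacts with other cells. Monomer-binding proteins supply actin subunits, the Arp2/3 complex starts new branches, capping proteins close the growing ends, severing proteins cut old filaments, and bundling or cross-linking proteins tie filaments to each other. Among the 10 genes, Pfn1 (profilin) and Cap1 (cyclase-associated protein) act on actin monomers, Cfl1 (cofilin) and Gsn (gelsolin) sever filaments, and Capg caps filament ends. Arpc1b is a subunit of the Arp2/3 complex, Coro1a (coronin) binds filaments and the Arp2/3 complex, Lcp1 (L-plastin) bundles filaments in leukocytes, Flna (filamin A) cross-links them, and Vil1 (villin) is the gelsolin relative of epithelial microvilli.

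The measurements are MAS 5.0 intensities, on a linear scale in which the brightness of a probe set reflects its own probes as well as the RNA, so levels were compared between mice within a probe set and never between probe sets. To enter a test, a probe set needed 5 or more mice with a signal of 50 or more, and 20 of the 22 met this, from 9 of the 10 genes. Ratios are between mean signals, differences are on a scale of log2(signal + 10), which understates those of dim probe sets, and a ratio against values under 50 is given as a lower bound with those values taken as 50. A difference was called where limma gave a p under 0.05 once adjusted by the Benjamini-Hochberg method over the 38293 probe sets kept. Before the values are read, 4 mice stand out in quality by the Actb ratio or the correlation given next. The 3'/5' ratio of Gapdh was 3.997, 3.153 and 2.307 in the 3 NON mice among them. It was also 2.404 in C57 replicate 4 of 4 weeks and 2.174 in C57 replicate 5 of 2 weeks, which were not set apart. The ratio of signals from the 3' and 5' ends of Actb, a sign of RNA integrity, was 0.988 to 3.87 in all other mice and 6.62 in NON replicate 2 of 2 weeks, 7.02 in NON replicate 1 of 4 weeks and 5.3 in NON replicate 5 of 4 weeks, and NOD replicate 3 of 4 weeks had a median correlation of 0.739 with its own group, against at least 0.824 in every other mouse. Results are given without these mice where that changes them. Ptprc, the CD45 antigen of all leukocytes, was bright in every mouse (2531 to 12499), as were the 3 B cell markers measured (sums from 9228 to 28903). The summed signal of 4 T cell markers was 561 to 1530.3 in NON mice of 2 weeks against 1941 to 4752 in NOD and 1829 to 4646 in C57 at that age, and at 4 weeks it was 2373 to 3073 in NON, 3476 to 5220 in NOD and 3851 to 5811 in C57. Between strains, 1 of these 4 markers was called at 2 weeks and 2 at 4 weeks.

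The sequences just upstream of the start sites of Cap1, Capg, Gsn and Lcp1 are shown because the strains were farthest apart at these 4 genes. Each is the 100 bases before the RefSeq start site in the mouse build GRCm38.p6, printed 5′ to 3′ on the strand of the gene. For Gsn and Lcp1, which have several start sites in RefSeq, 1 of them is shown. Capitals mark GC boxes, the letters GGGCGG on either strand, which is the core that Sp-family transcription factors recognise.
Cap1, chr4:122886077-122886176, minus strand: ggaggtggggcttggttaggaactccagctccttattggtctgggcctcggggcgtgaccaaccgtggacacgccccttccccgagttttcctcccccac
Capg, chr6:72549547-72549646, plus strand: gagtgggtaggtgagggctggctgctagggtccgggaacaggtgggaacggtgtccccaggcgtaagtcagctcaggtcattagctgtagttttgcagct
Gsn, chr2:35256259-35256358, plus strand: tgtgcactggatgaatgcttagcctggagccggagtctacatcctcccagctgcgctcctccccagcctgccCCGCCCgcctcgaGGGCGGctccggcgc
Lcp1, chr14:75131023-75131122, plus strand: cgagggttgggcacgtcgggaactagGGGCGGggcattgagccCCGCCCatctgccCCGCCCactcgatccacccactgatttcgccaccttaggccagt
The Lcp1 stretch holds 3 GC boxes and the Gsn stretch 2, while those of Cap1 and Capg hold none. In the longer windows given for each start site (250 bases before it to 50 after it), a GC box was found in 11 of 14 windows, in 8 of the 10 genes, against 35.7% of all 32851 promoter windows of the mouse. Cap1 and Capg were the other two genes. The ETS motif CCGGAAG was in windows of 3 genes, Cap1, Cfl1 and Vil1 (8.86% of all windows), the CArG box, the site of serum response factor, was in that of Vil1 alone (1.63% of all windows), and TATAAA was in none (13.6% of all windows), each searched on both strands. A match describes the letters and does not show that a factor binds there.

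Cap1, whose protein recycles actin monomers together with cofilin, had a bright signal in NOD mice on both of its probe sets and a low signal, at most 224, in every control mouse. On 1417461_at the signals of the NOD mice were 3279, 2899, 2623, 2660.1 and 2739 at 2 weeks and 2411, 2845, 2499, 3017 and 2878 at 4 weeks, in replicate order. Those of NON mice were 107, 55.9, 224, 129 and 129.7 at 2 weeks and 24.7, 91.5, 40.6, 145 and 138 at 4 weeks. Those of C57 mice were 168, 73.9, 130.4, 74.1 and 36.4 at 2 weeks and 168, 125, 49.1, 41.6 and 105 at 4 weeks. Every NOD mouse lay far above every control mouse, and the groups did not overlap at either age. With the control values under 50 taken as 50 (1 of 10 at 2 weeks and 4 of 10 at 4 weeks), the NOD mean exceeded that of the controls at least 24.9-fold at 2 weeks (measured means of 2840.0 ± 267 for NOD, 129 ± 61.0 for NON and 96.5 ± 52.1 for C57, SD, n = 5) and at least 28.1-fold at 4 weeks (2730.2 ± 261 against 87.9 ± 54.8 and 97.7 ± 53.0).

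On the second Cap1 probe set, 1417462_at, the NOD mice had signals of 2228, 1494, 1928, 1764 and 2094 at 2 weeks and 1044, 790.4, 1234, 1739 and 1928 at 4 weeks. The NON mice had 5.1, 45.2, 86.3, 59.3 and 24.5 at 2 weeks and 36.1, 32.6, 30.8, 37 and 27.4 at 4 weeks. The C57 mice had 69.1, 43.7, 46.5, 4.6 and 23.2 at 2 weeks and 71.7, 23.9, 2.6, 17.2 and 30.3 at 4 weeks. Most control values were under 50, where a signal cannot be told from background, and no control mouse came near an NOD mouse. With each control value under 50 taken as 50, NOD was at least 33.7-fold higher at 2 weeks and at least 25.8-fold higher at 4 weeks. The difference on the log2 scale was 4.68 and 4.92 on 1417461_at and 5.46 and 5.11 on 1417462_at. The NON and C57 mice, which had in common a low Cap1 signal, overlapped each other on both probe sets at both ages.

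Capg, a capping protein of the gelsolin family that is abundant in macrophages, went the other way and was dim in NOD mice. On 1450355_a_at the signals of NOD mice were 172, 154, 176, 213 and 189 at 2 weeks and 335, 207, 351, 279 and 238 at 4 weeks. In NON mice they were 1019.7, 1072, 1088, 1260.4 and 514 at 2 weeks and 1021, 1161, 1138, 1007 and 1165 at 4 weeks. In C57 mice they were 1179, 1291, 1180.4, 949 and 1111 at 2 weeks and 1081, 974, 1262, 1145 and 1186 at 4 weeks. The brightest NOD mouse of either age (351) lay below the dimmest control mouse (514), which was replicate 5 of the 2 week old NON mice, with the other 4 of its group at 1019.7 or above. Control means were 5.9-fold above NOD at 2 weeks (log2 difference of NOD from the controls -2.47) and 3.95-fold at 4 weeks (log2 difference -1.97). The means were 181 ± 21.8 and 282 ± 61.7 for NOD, 991 ± 281 and 1099 ± 78.0 for NON, and 1142 ± 126 and 1129.7 ± 109 for C57 at 2 and 4 weeks (SD, n = 5).

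The Capg probe set of the 430B array, 1447803_x_at, showed a smaller difference in the same direction. Its signals in NOD mice were 266, 215, 198, 202 and 229 at 2 weeks and 369.6, 210.2, 348, 268 and 458 at 4 weeks. Its signals in NON mice were 351, 604, 487, 626 and 448 at 2 weeks and 350.1, 537, 584, 369.6 and 503 at 4 weeks. Its signals in C57 mice were 384, 347, 431, 704 and 475 at 2 weeks and 569, 521, 730.3, 297 and 369 at 4 weeks. At 2 weeks all NOD mice were below all controls, and at 4 weeks they overlapped, with NOD replicates 1, 3 and 5 inside the range of the controls. The control mean was 2.19-fold above NOD at 2 weeks and 1.46-fold at 4 weeks. Beside these values, the summed signal of 6 macrophage and monocyte markers was 3787 to 8512 in NOD, 3949 to 8096 in NON and 2926 to 4470 in C57 at 2 weeks, and 6408 to 14408, 5239 to 11107 and 2117 to 10191 at 4 weeks, and 0 of the 6 was called between strains at either age (limma adjusted p of at least 0.205).

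**Figure D1:**
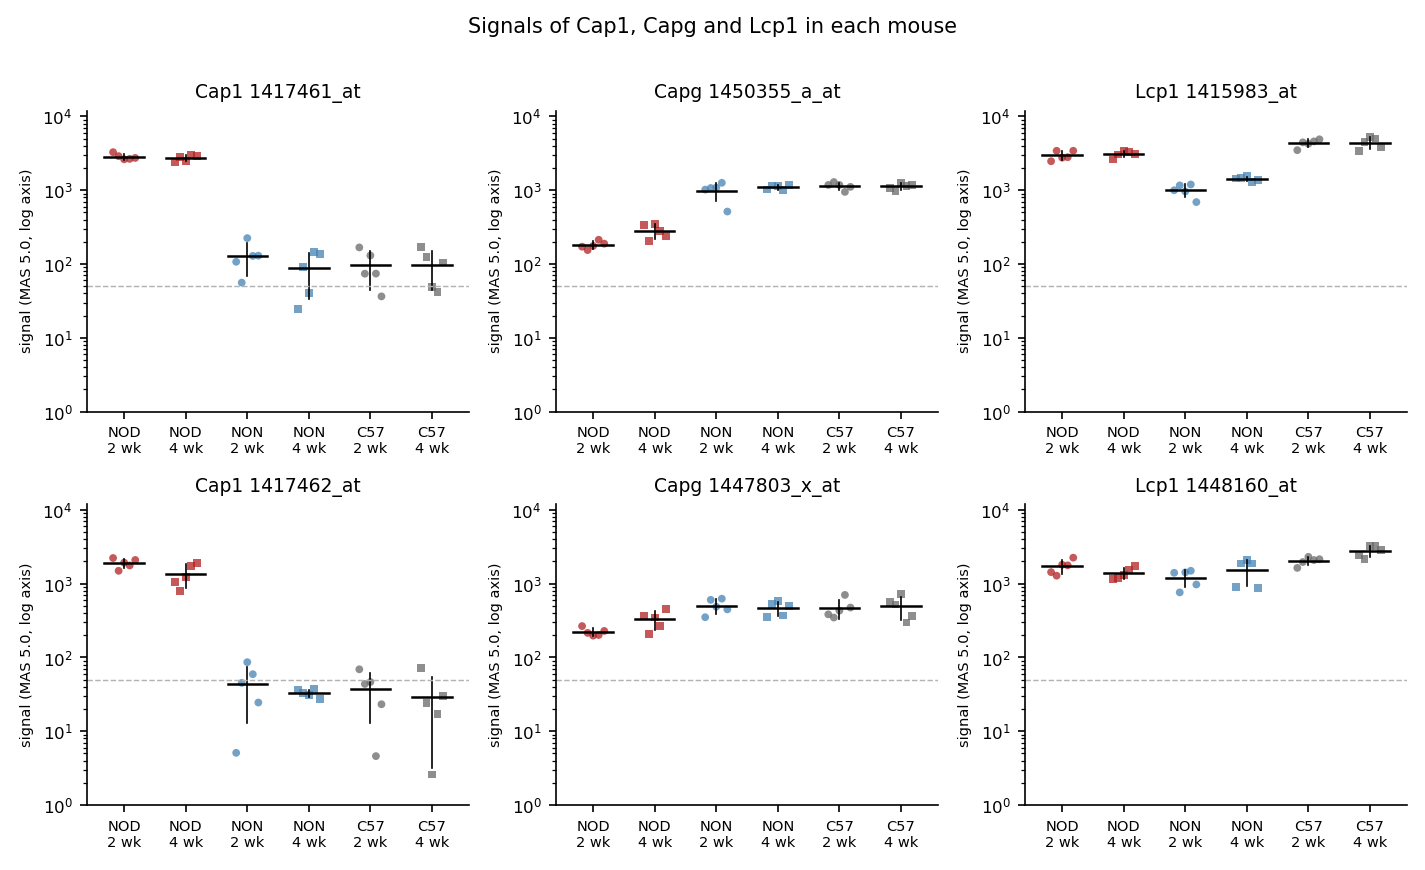
Log-axis plot of the MAS 5.0 signal of both probe sets of Cap1, Capg and Lcp1 in each mouse, by strain and age. Circles are mice of 2 weeks and squares mice of 4 weeks, the black line is the mean of 5 mice, the vertical line its SD (cut at 1), and the dashed line marks a signal of 50. NOD mice sit above all controls for Cap1 on both probe sets and below all controls for Capg on 1450355_a_at, and NON mice sit below all others for Lcp1 on 1415983_at.

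Gsn, the calcium-dependent severing and capping protein gelsolin, had 6 probe sets, and on 2 of them NON mice were dimmer than every other mouse of 2 weeks. The largest difference was on 1456312_x_at. Its signals in NON mice were 22.5, 31.7, 27.1, 32.7 and 11.1 at 2 weeks and 46.2, 19.5, 26.2, 32.4 and 61.1 at 4 weeks. In NOD mice they were 1290.3, 570.2, 1113, 1003 and 906 at 2 weeks and 502, 334, 638, 1473 and 1440 at 4 weeks. In C57 mice they were 387, 925, 508, 648 and 445 at 2 weeks and 508, 601, 236, 314 and 470.3 at 4 weeks. All NON mice but replicate 5 of 4 weeks (61.1) were under 50, and every mouse of the other strains was at 236 or above. The mean of the others was at least 15.6-fold above NON at 2 weeks and at least 12.5-fold at 4 weeks, with each NON value under 50 taken as 50 (log2 differences of NON from the others -4.43 and -3.64). Among NOD mice of 4 weeks, replicates 4 and 5 had the highest signals, with Actb 3'/5' ratios of 1.3 and 1.12, while that ratio was 2.64, 3.87 and 2.91 in replicates 1, 2 and 3. Among NOD mice of 2 weeks, replicate 1 had the highest signal (1290.3) and also the highest ratio (2.62). The part of RNA integrity in the spread of either group was not tested.

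On 1437171_x_at the NON mice were again lowest. Their signals were 168, 193, 125, 253 and 171 at 2 weeks and 279, 200, 130.1, 252 and 189.8 at 4 weeks. NOD mice had 874, 666, 954, 760 and 572 at 2 weeks and 575, 574, 706, 836 and 774 at 4 weeks. C57 mice had 510.5, 916, 530.1, 327 and 347 at 2 weeks and 397, 415, 289, 256 and 311 at 4 weeks. At 2 weeks the 5 NON mice were below all others (3.55-fold between the means). At 4 weeks NON and C57 overlapped, and it was NOD that lay above all other mice (2.55-fold over the mean of the controls). Here the lowest of the C57 mice (256) was within the range of NON.

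On the other measured Gsn probe sets, no strain lay on 1 side of all other mice at either age. On 1415812_at the signals were 592 to 829 for NOD, 380.3 to 699 for NON and 361 to 584 for C57 at 2 weeks, and 438 to 1037, 464 to 584 and 343 to 707 at 4 weeks. The NOD mean was 1.45-fold and 1.44-fold above the controls, and the mice of the strains overlapped at both ages. The brightest Gsn probe set, 1436991_x_at, had means of 936 ± 254 for NOD, 584 ± 170.0 for NON and 648 ± 254 for C57 at 2 weeks and 957 ± 117, 643 ± 227 and 504 ± 214 at 4 weeks (SD, n = 5), with overlapping mice in each case. The dim 1456569_x_at was at 85.0, 54.0 and 88.3 at 2 weeks and at 131, 33.5 and 73.8 at 4 weeks, the NOD mean of 4 weeks resting in part on replicate 3 at 277. On 1456568_at every mouse was under 50 (highest 24.1), so that it carried no measurable signal and did not pass the filter.

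**Figure D2:**
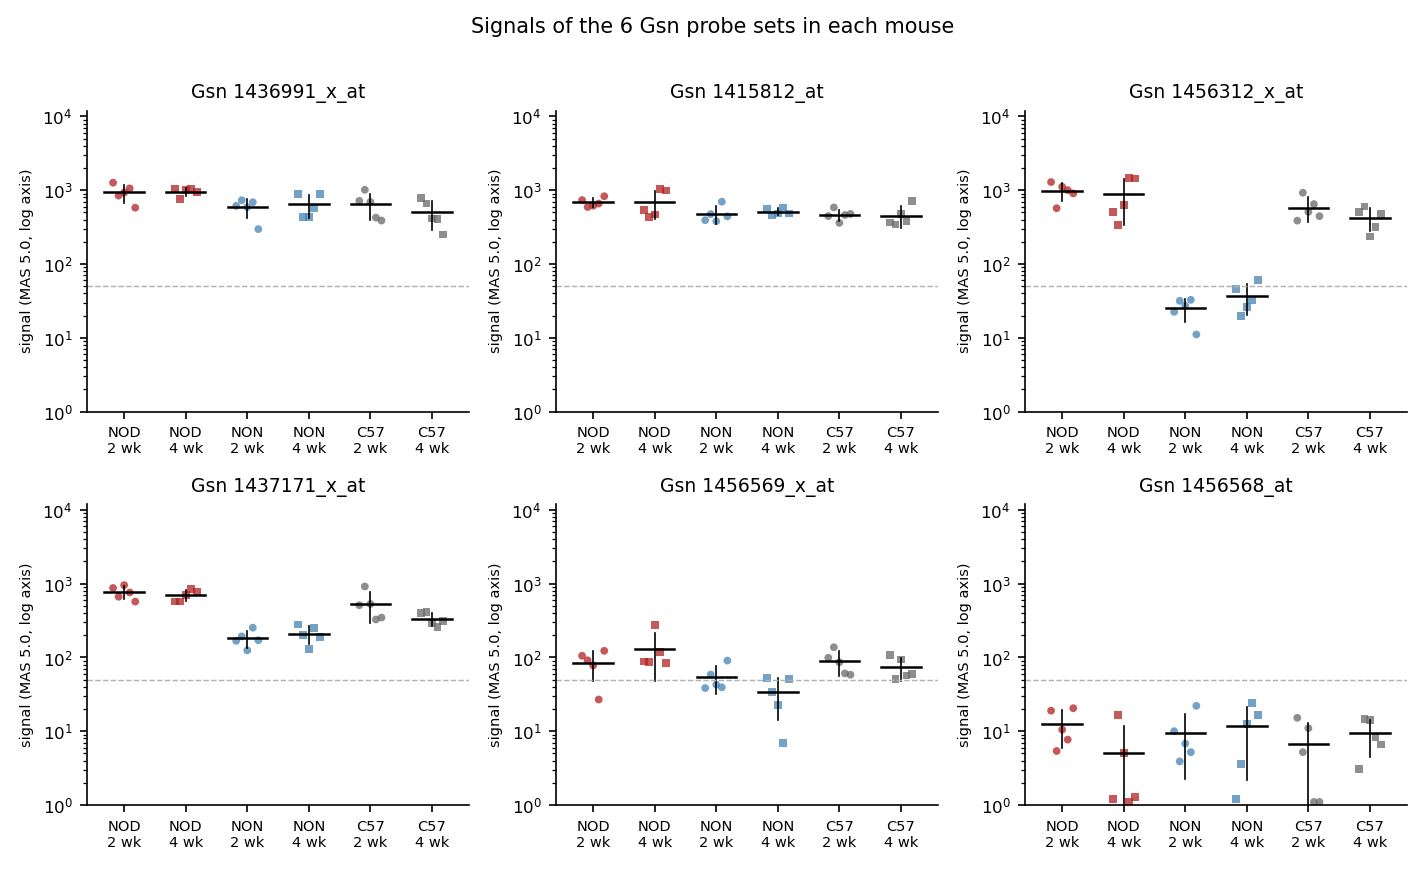
Log-axis plot of the MAS 5.0 signal of the 6 Gsn probe sets in each mouse, by strain and age. Circles are mice of 2 weeks and squares mice of 4 weeks, the black line is the mean of 5 mice, the vertical line its SD (cut at 1), and the dashed line marks a signal of 50. NON mice lie below all others on 1456312_x_at at both ages, while on 1415812_at and 1436991_x_at the mice of the 3 strains overlap.

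Lcp1, which encodes the filament-bundling L-plastin of leukocytes, had its lowest signals in NON mice on 1415983_at. In NON mice the signals were 999.6, 1163, 962, 1196 and 691 at 2 weeks and 1438, 1472, 1559, 1291 and 1362 at 4 weeks. In NOD mice they were 2472, 3423, 2762, 2803 and 3426 at 2 weeks and 2609.5, 3057, 3438, 3323 and 3111 at 4 weeks. In C57 mice they were 3490.1, 4457, 4264, 4592 and 4901 at 2 weeks and 3412, 4502, 5307, 5016 and 3879.5 at 4 weeks. The ages of NON mice did not overlap each other, and both were below every NOD and C57 mouse. At 2 weeks C57 was in turn above every other mouse, and at 4 weeks the lowest C57 mouse (3412) fell within the range of NOD. The mean of the other strains was 3.65-fold above NON at 2 weeks and 2.64-fold at 4 weeks (log2 differences of NON from the others -1.85 and -1.36). The sum of T cell markers was also lower in every NON mouse than in every mouse of the other strains at the same age, and the part of T cells in this difference was not tested.

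The second Lcp1 probe set, 1448160_at, gave a smaller difference with overlapping mice. NON mice had signals of 1405, 762, 1423, 1496 and 975 at 2 weeks and 902, 1875, 2106, 1877 and 876 at 4 weeks. NOD mice had 1434, 1283, 1806, 1772 and 2251 at 2 weeks and 1150.4, 1194, 1313, 1529.9 and 1736 at 4 weeks. C57 mice had 1636, 1966, 2310.2, 2091 and 2146 at 2 weeks and 2411, 2181, 3279, 3221 and 2881 at 4 weeks. C57 mice were above all others at 4 weeks. The difference of NON from the others was -0.64 at 2 weeks and -0.45 at 4 weeks on the log2 scale. The lowest NON mice, replicate 2 of 2 weeks (762) and replicates 1 and 5 of 4 weeks (902 and 876), are the 3 with the highest Actb 3'/5' ratios, and without the 4 mice of lower quality the difference was -0.49 at 2 weeks and -0.0028 at 4 weeks. On 1415983_at, by contrast, the difference stayed between -1.92 and -1.72 at 2 weeks and between -1.41 and -1.33 at 4 weeks under every setting and every left-out mouse, these 4 included.

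The genes of core actin turnover were bright in all 3 strains. Pfn1, which exchanges the nucleotide on actin monomers and feeds them to growing ends, had signals of 3373 to 8517 for NOD, 3270.5 to 6216 for NON and 2670 to 3932 for C57 at 2 weeks, and 3696 to 6662, 3241 to 5463 and 2544 to 5156 at 4 weeks. The NOD mean was 1.43-fold and 1.45-fold above the controls, within overlapping mice. Cfl1, the severing cofilin, ranged over all 30 mice from 1667 to 4655 on 1448346_at and from 4117 to 9818 on 1455138_x_at. The NOD mean of Cfl1 was between 0.75 and 0.92 of the controls on both probe sets and at both ages, with the strains overlapping.

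Coro1a, a coronin of hematopoietic cells that T cells need to survive, had means of 4539 for NOD, 4345 for NON and 5024 for C57 at 2 weeks and 4774, 5092 and 5596 at 4 weeks on 1416246_a_at. Its second bright probe set, 1455269_a_at, ranged from 2266 to 7343 over the 30 mice, with the 3 strains overlapping. The lowest Coro1a value on it was in a 2 week old NON mouse, in the group with the lowest sum of T cell markers. The same group also held a value of 6623, above every NOD mouse of that age (highest 6017). The part of T cell number in these values was not tested. The remaining Coro1a probe set, 1435288_at, was dim (33.8 to 186). Arpc1b, the Arp2/3 subunit found mainly in blood cells, was even on 1416226_at, with means from 3319.5 to 3676 over the 6 groups, while 1416227_at was at 14.5 to 96.2 and near background. Both are listed for Arpc1b and for Gm5637, so their signal may come from either. Flna, the large cross-linker that links actin to integrins, had means from 1078 to 1452. Vil1, which leukocytes are not known for, was under 50 in every mouse (1.5 to 42.7) and gave no measurable signal.

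Among the 20 kept probe sets, 7 were called between strains at 2 weeks (both of Cap1, both of Capg, Gsn 1437171_x_at and 1456312_x_at and Lcp1 1415983_at) and 6 at 4 weeks (the same without Capg 1447803_x_at), beside 1.66% and 1.51% of all probe sets tested. Probe sets with all NOD mice on 1 side of all other mice at both ages came to 3 of 20 (both of Cap1 and Capg 1450355_a_at) beside 0.172% of all, those with all NON mice on 1 side to 2 of 20 (Gsn 1456312_x_at and Lcp1 1415983_at) beside 0.188%, and those with all C57 mice on 1 side to 0 of 20 beside 0.366%. As the genes were chosen with such differences known, these counts describe the choice.

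The probe sets of 1 gene did not all give the same difference between strains, and since these differences chose the genes, their spread is a description. For Cap1 the difference of NOD from the controls was 0.78 log2 units apart between the 2 probe sets at 2 weeks and 0.18 at 4 weeks. Over all 4189 genes with 2 probe sets, the median of this spread was 0.297 at 2 weeks and 0.326 at 4 weeks. The 95th percentile was 1.07 and 1.17. For Capg the spread was 1.4 at 2 weeks and 1.43 at 4 weeks. For Lcp1 the spread of the difference of NON from the others was 1.2 at 2 weeks and 0.92 at 4 weeks. Over all genes with 2 probe sets, the 95th percentile of that NON spread was 1.02 and 1.10. With 5 probe sets it was 1.60 and 1.79. The 5 kept probe sets of Gsn spread over 4.17 log2 units at 2 weeks and 3.58 at 4 weeks in the difference of NON from the others. One end of that spread is 1456312_x_at, on which NON was near background, so that its difference depends on the pseudocount (-4.89 with a pseudocount of 1 and -3.38 with 50 at 2 weeks, -3.96 and -2.82 at 4 weeks). For the difference of NOD from the controls, Gsn spread over 2.58 and 2.02. Both Cfl1 probe sets gave nearly one value (a spread of 0.026 and 0.15), and the 3 of Coro1a lay within 0.54 and 0.26 in the difference of NOD from the controls. The probe sequences behind these probe sets were not used here. The part of sequence differences between strains under the probes, or of different transcripts, in these spreads was therefore not tested.

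**Figure D3:**
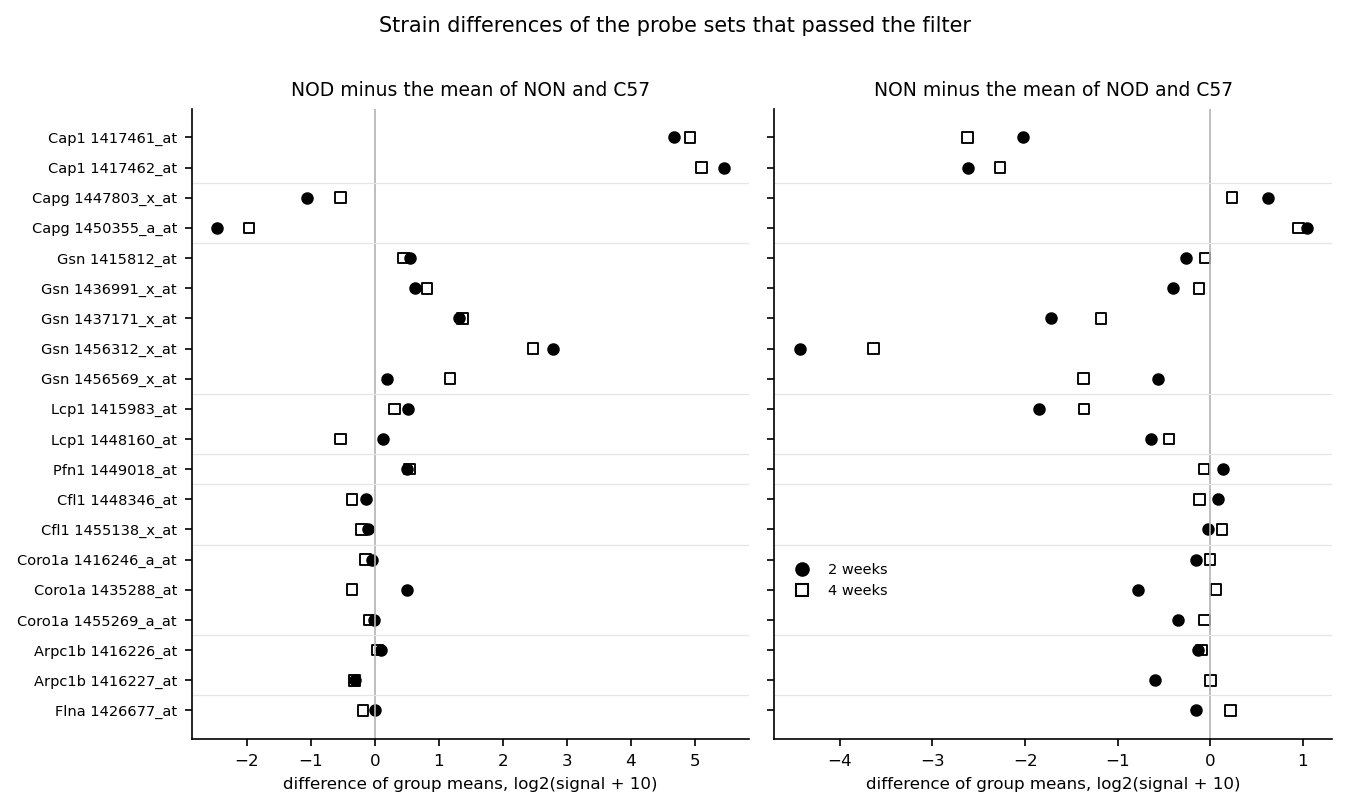
Difference between strains, on the log2(signal + 10) scale, for each kept member probe set at 2 weeks (filled circles) and 4 weeks (open squares), as NOD minus the mean of the controls and as NON minus the mean of the other strains. Cap1 lies at 4.68 to 5.46 and Capg at -2.47 to -0.53 in the first, and Gsn ranges from -4.43 to -0.056 between its own probe sets in the second.

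No age change of a member was called. From 2 to 4 weeks, 0 of the 20 kept probe sets passed limma's test in NOD, NON or C57 (before adjustment, 3, 1 and 1 had a p under 0.05). Of all probe sets, 0.0418% rose and 0.104% fell in NOD, 0.812% rose and 0.65% fell in NON, and 0.0575% rose and 0.402% fell in C57. The median change of the 20 was -0.059 in NOD, 0.13 in NON and -0.0034 in C57, with standard errors of 0.16 to 0.45 for single probe sets. Lowest in adjusted p was Lcp1 1415983_at in NON, whose mean went from 1002 ± 201 to 1424 ± 103 (SD, n = 5), a log2 change of 0.53 (95% interval 0.19 to 0.86, limma adjusted p = 0.108). All 5 NON mice of 4 weeks were above all 5 of 2 weeks. Beside it, the T cell marker sum of NON went from 561 to 1530.3 at 2 weeks to 2373 to 3073 at 4 weeks, with 3 of 4 T cell markers called as rising. Ptprc also rose in NON, from a mean of 4942 to 9057 (limma adjusted p = 0.0266). The part of T cells or of leukocyte content in the Lcp1 change was not tested.

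In NOD mice the Capg probe set 1450355_a_at came nearest to the threshold. Its mean was 181 ± 21.8 at 2 weeks and 282 ± 61.7 at 4 weeks, a log2 change of 0.60 (95% interval 0.21 to 0.98, limma adjusted p = 0.274), and the other probe set gave 0.52 (0.019 to 1.01, adjusted p = 0.542). Both ages of NOD overlapped, by replicate 2 of 4 weeks at 207. Gsn 1437171_x_at in C57 had a log2 change of -0.57 (-1.07 to -0.061, adjusted p = 0.649). Flna in C57 had non-overlapping ages, 1373 to 1614 at 2 weeks against 804 to 1283 at 4 weeks, with a log2 change of -0.35 (-0.71 to 0.0054, adjusted p = 0.76). Cap1 in NOD had intervals that include no change on both probe sets. The 95% intervals of all members ran from -1.48 to 1.31 in NOD, -1.44 to 1.14 in NON and -1.24 to 0.95 in C57.

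Whether the age change differed between strains was tested directly. A difference was called for 0 of 20 member probe sets (limma's moderated F-test, lowest adjusted p = 0.693 for Coro1a 1435288_at, 1 of 20 under 0.05 before adjustment), beside 0.00261% of all probe sets. That share is 1 probe set of 38293, and 2642 were under 0.05 before adjustment. For Cap1, Capg, Gsn and Lcp1 no change of the strain difference from 2 to 4 weeks was called on any kept probe set.

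**Figure D4:**
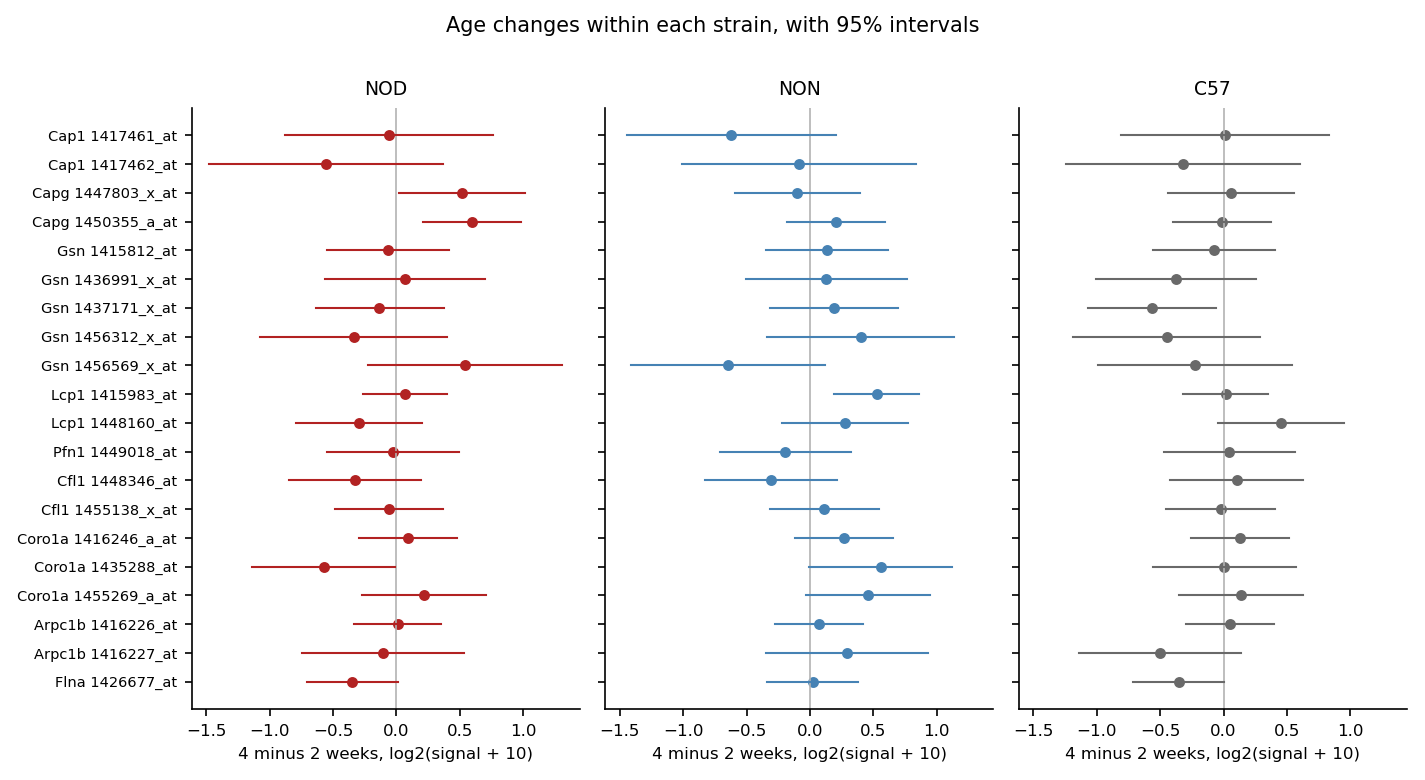
Change from 2 to 4 weeks, on the log2(signal + 10) scale, of each kept member probe set in NOD, NON and C57BL/6 mice, with 95% intervals from limma (5 mice at each age). No change passed an adjusted p under 0.05, and Lcp1 1415983_at in NON (0.53) and Capg 1450355_a_at in NOD (0.60) are among those whose interval excludes 0.

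To set the members beside the rest of the actin machinery, 92 other genes of actin regulation were listed, of which 83 were measured here, each on its brightest kept probe set. They cover the Arp2/3 complex (6 measured) and its WASP and WAVE activators (13), severing and turnover (15), the gelsolin family (4), end capping (10), bundling and cross-linking (11), monomer binding and nucleation (10), membrane linkage (12) and actin itself (2). The list was drawn up with earlier results of these data known, so its strain calls and their p are a description. Of the 83 genes, 1 was called between strains at 2 weeks and 1 at 4 weeks, beside 1.66% and 1.51% of all probe sets (limma, with 15 and 18 below 0.05 before adjustment). The median difference of NOD from the controls over the list was -0.013 at 2 weeks and 0.033 at 4 weeks, against 0.062 and 0.048 over all probe sets. For NON minus the others it was -0.14 and -0.049, against -0.0078 and -0.012. The most extreme differences of NOD from the controls among the 83 genes were -1 and 0.59 at 2 weeks and -0.57 and 1.10 at 4 weeks.

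Actn1, which encodes the cross-linker alpha-actinin-1, was the 1 gene called at both ages, and it was low in NON. At 2 weeks its signal was 358 ± 53.1 in NON (310.1 to 443), 625 ± 129 in NOD (529 to 841) and 745 ± 160 in C57 (545 to 943, SD, n = 5, log2 difference of NON from the others -0.90, limma adjusted p = 0.0259). At 4 weeks it was 391 ± 93.7 (296 to 494), 853 ± 291 (557 to 1203) and 930.4 ± 143 (815 to 1178, log2 difference -1.16, adjusted p = 0.0234). NON mice overlapped neither of the other strains at either age. As with Lcp1, the sum of T cell markers was lower in every NON mouse than in the other strains at each age, and its part in the Actn1 difference was not tested. The call is near the threshold, since it was lost at 2 weeks without any 1 of NON replicates 1, 3 and 5 or C57 replicates 3, 4 and 5 (adjusted p from 0.0545 to 0.0759), and at 4 weeks without any 1 of NON replicates 2, 3 and 5 or C57 replicate 5 (0.0511 to 0.074). Without the 4 mice of lower quality the differences were -0.89 (adjusted p = 0.042) and -1.28 (adjusted p = 0.077). A dimmer Actn1 probe set, 1452415_at, was called at 4 weeks (means of 157 in NOD, 62.7 in NON and 177 for C57, limma adjusted p = 0.0451) and not at 2 weeks (0.617), and 1427385_s_at was called at neither (0.983 and 0.113).

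Between the ages, Dstn, whose product destrin is a close relative of cofilin, fell in 2 strains. In C57 mice its signal fell 2.49-fold, from 1066 ± 234 to 428 ± 68 (SD, n = 5, limma adjusted p = 0.00464, log2 change -1.28 with a standard error of 0.23), with all 5 older mice (321 to 495) below all 5 younger (788 to 1399). When only C57 mice were fitted, the adjusted p was 0.0508. In NOD mice it fell 2.14-fold, from 1356 ± 468 to 633 ± 205 (log2 change -1.09, adjusted p = 0.0453), again with no overlap. In NON it went from 963 ± 105 to 754 ± 91.8 (adjusted p = 0.556), and the age change was not shown to differ between strains (adjusted p = 0.666). The NOD call was near the threshold. It was lost when only NOD mice were fitted (adjusted p = 0.473), with no filter on low signals (0.052), without the 4 mice of lower quality (log2 change -0.93, adjusted p = 0.131), without any 1 of 6 NOD mice (replicates 1, 3 and 4 of 2 weeks and 1, 2 and 3 of 4 weeks, adjusted p from 0.0671 to 0.15) and without any 1 of 13 control mice, through the shared spread (0.0506 to 0.056). Markers of granulocytes moved alongside: the sum of 7 went from 56509 to 119130 at 2 weeks to 27944 to 49560 at 4 weeks in NOD, from 59550 to 80495 at 2 weeks to 21220 to 37110 at 4 weeks in C57 and from 49360 to 95428 at 2 weeks to 52869 to 79832 at 4 weeks in NON, with 2, 5 and 1 of the 7 called as falling. Their part in the fall of Dstn was not tested.

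Vcl, which encodes the adhesion protein vinculin, fell 2.16-fold in C57 mice, from 848 ± 226 to 392 ± 72.3 (SD, n = 5, limma adjusted p = 0.0121, log2 change -1.07 with a standard error of 0.21). In NOD it was at 823 ± 176 and 595 ± 119 (adjusted p = 0.521), in NON at 877 ± 228 and 747 ± 70.6 (adjusted p = 0.761), and the age change was not shown to differ between strains (adjusted p = 0.683). Its second, dim probe set was not called in C57 (68.7 and 41.6, adjusted p = 0.955), and the call was lost without C57 replicate 5 of either age (adjusted p = 0.0589 and 0.0613) and when only C57 mice were fitted (0.153). As with Dstn, the sum of granulocyte markers was lower at 4 weeks in every mouse of C57, and also of NOD, where Vcl was not called. In C57 the sum of 4 megakaryocyte and platelet markers went from 616 to 4514 at 2 weeks to 609 to 876 at 4 weeks, with 0 called. The part of either cell type in the fall of Vcl was not tested. Wipf1, which encodes a partner of WASP in starting actin branches, rose 1.65-fold in NON mice, from 560.4 ± 49.7 to 924 ± 199 (log2 change 0.69, standard error 0.17, adjusted p = 0.0381), and a second Wipf1 probe set rose from 570.5 to 965 (adjusted p = 0.0145). The Wipf1 call was lost without any 1 of NON replicates 1, 4 and 5 of 2 weeks or 2, 3 and 5 of 4 weeks (adjusted p from 0.0585 to 0.131) and without the 4 mice of lower quality (0.0708, log2 change 0.84) and when only NON mice were fitted (0.22), and the change was not shown to differ between strains (adjusted p = 0.706). In the same mice Ptprc rose from a mean of 4942 to 9057 (adjusted p = 0.0266), and 3 of 4 T cell markers were called as rising. The part of leukocyte content or of T cells in the rise of Wipf1 was not tested. Actb and Actg1, the actin genes themselves, were called in no comparison, with the lower adjusted p of the pair between strains at 0.771 at 2 weeks and 0.891 at 4 weeks.

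Over the list, 0 genes rose and 1 fell in NOD (5 below 0.05 before adjustment), 1 rose and 0 fell in NON (19 before adjustment), and 0 rose and 2 fell in C57 (10 before adjustment). Over all probe sets the shares that rose and fell were 0.0418% and 0.104% in NOD, 0.812% and 0.65% in NON and 0.0575% and 0.402% in C57. The median age change was 0.01, -0.0029 and -0.068, against -0.0022, 0.0034 and 0.027 over all probe sets. For 0 of the 83 genes was a difference in age change between strains called, beside 0.00261% of all probe sets (limma, lowest adjusted p = 0.618, 10 with a p under 0.05 before adjustment). Probe sets other than the brightest added 2 genes, chosen after their values were seen. Fscn1 encodes the bundling protein fascin. On 1416514_a_at it was high in NOD at 4 weeks (325 against 82.5 for NON and 93.8 for C57, limma adjusted p = 0.0258). Its brightest probe set, at 290, 210 and 252 in NOD, NON and C57, was not called at that age (adjusted p = 0.531). Add3, a subunit of the membrane skeleton protein adducin, rose in NON on 1423298_at from 787 to 1567 (adjusted p = 0.0381). That probe set also differed between strains at 2 weeks (adjusted p = 0.042). In NON the brightest Add3 probe set was at 1689 and 1721 at 2 and 4 weeks (adjusted p = 0.998). It was not called between strains at 2 weeks either (adjusted p = 0.971).

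**Figure D5:**
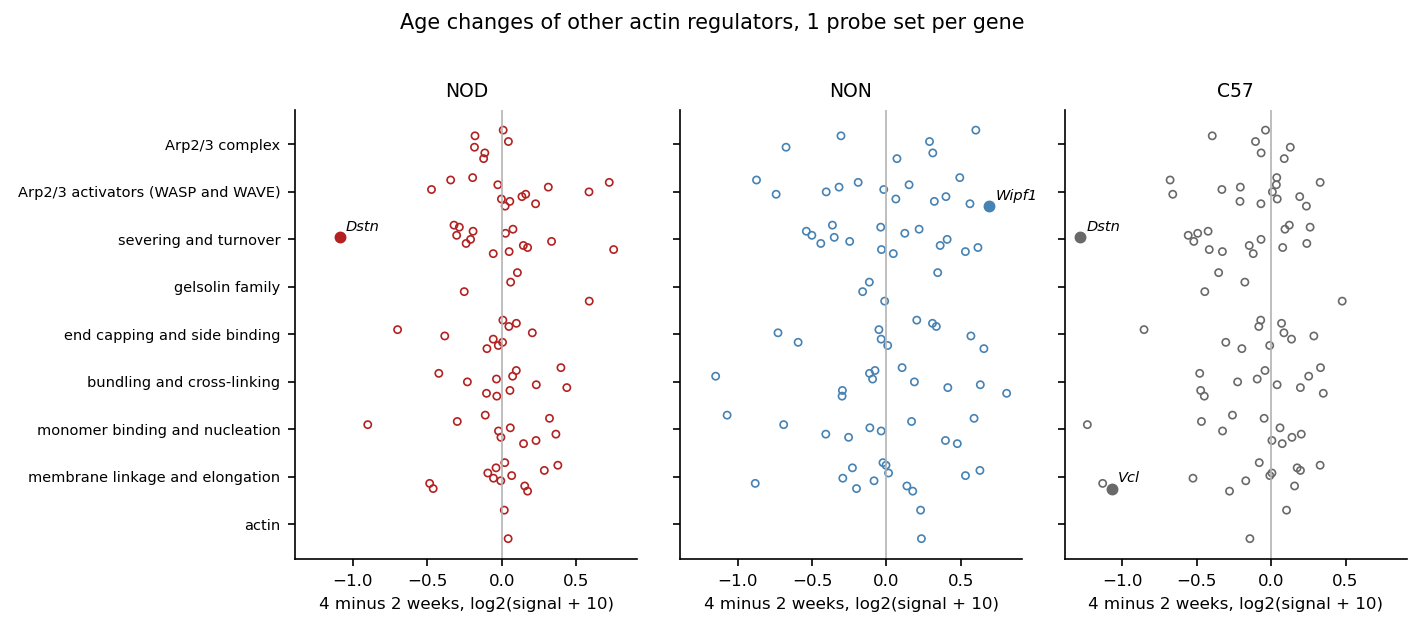
Change from 2 to 4 weeks, on the log2(signal + 10) scale, of 83 measured genes of actin regulation in NOD, NON and C57BL/6 mice, 1 point a gene on its brightest kept probe set. Filled and named points passed an adjusted p under 0.05 in limma: Dstn (-1.09 in NOD and -1.28 in C57BL/6) and Vcl (-1.07 in C57BL/6) fell, and Wipf1 (0.69 in NON) rose.

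The profiles most like those of the brightest probe sets of Cap1, Capg and Gsn were sought among all other named genes, as the root mean square difference over the 30 mice between profiles centred on their own means, on the log2 scale. For Cap1 1417461_at the 5 nearest were Ear3, Dnase1l3, E330020D12Rik, Serpina1b and 2310001H17Rik, at 1.45 to 1.65, against a median of 2.39 over all. None was close, whereas its own second probe set was at 0.74, with 0 probe sets nearer. For Capg 1450355_a_at they were Ndufs5, A630001G21Rik, Prxl2c, Polr1c and Pdk1, at 0.45 to 0.48 (median over all 1.24). These all had low means in NOD, such as 76.2 for Ndufs5 at 2 weeks against 562 in NON and 488 in C57, and 69 probe sets were nearer to this profile than Capg's own second probe set at 0.78. For Gsn 1436991_x_at they were Hadhb, Slc25a4, Scp2, Lasp1 and Cd1d1, at 0.302 to 0.353 (median over all 0.80). Its own probe set 1456312_x_at stood at 1.85, with 38242 probe sets nearer. The likeness follows strain for Cap1 and Capg, so it says no more than that these genes were high or low in the same strain.

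Lastly, the genes that lie next to Cap1, Capg, Gsn and Lcp1 on their chromosomes were looked at, 10 on each side by RefSeq order, on 32, 38, 50 and 37 kept probe sets. Of these, 1 had NOD mice on 1 side of all other mice at both ages, beside 0.172% of all probe sets. With NON or C57 mice on 1 side there were 0, beside 0.188% and 0.366% of all. The 1 with NOD apart was 1437007_x_at of Usp39, a gene of RNA splicing near Capg, which was low in NOD as Capg was. Its means were 112 and 144 in NOD, 964 and 863 in NON and 788 and 653 in C57 at 2 and 4 weeks. The second Usp39 probe set, 1460209_at, had overlapping mice, with means of 319 and 286 in NOD, 458 and 417 in NON and 416 and 358 in C57.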

How the data were processed

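RNA of spleen leukocytes from 30 mice was hybridised to 60 arrays, a 430A and a 430B array for each mouse. The values deposited by the authors are MAS 5.0 intensities, linear and scaled per array. The methods name a scaling target of 100, whereas the 2% trimmed mean of every array was 250. Control probe sets (64) were left out, and 100 probe sets present on both arrays were taken from 430A, leaving 45037, of which 38293 passed the filter (a signal of at least 50 in at least 5 mice). Detection calls were not used. Values were compared as log2(signal + 10).

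Within each age, the 15 mice were compared by strain with the moderated F-test of limma, following the per-age design of the methods. Age changes and their difference between strains came from 1 fit of all 30 mice. Benjamini-Hochberg adjustment ran over all kept probe sets. R 4.3.3 and limma 3.58.1 were used, and the scripts were tested on simulated data. There, age changes in NOD of 1 and 2 log2 units were called for 27 and 70 of 100 changed probe sets. As a difference in age change between strains, they were called for 11 and 55 of 100. The lack of a call therefore does not show that nothing changed. Mice are the replicates, 5 in each group, and their number limits the precision. Groups and replicate numbers were taken from the labels.

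Members and lists were chosen with earlier results of these data known. Named were all member probe sets, up to 6 called genes of the actin list in each comparison, the 5 profiles nearest to Cap1, Capg and Gsn, and Actb and Actg1. Gene names came from the platform annotation, which gave 34945 probe sets 1 symbol, 932 several and 9160 none, and promoters and gene order from RefSeq (GRCm38.p6). Alternatives were the pseudocount, the filter, quantile normalization, an ordinary test per probe set, the probe set chosen, fits of 1 strain, a replicate block and each mouse left out. The 64 control probe sets served only for the 3'/5' ratios.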

Additional observations from a re-analysis of the deposited data

Results flagged for a closer look

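Within groups of 5 mice, 1 mouse lay far from the other 4 in 5 of 120 groups of member values, where chance would give about 1 in 20. Of the 5, 2 were in NOD replicate 3 of 4 weeks, the mouse with the low correlation to its group. Its signal of Coro1a 1455269_a_at was 7343 (next highest 5290.0), and that of Gsn 1456569_x_at was 277 (next highest 119). In NOD mice of 2 weeks, Cfl1 1448346_at was at 3799.7 in replicate 5 (next highest 2773), and Cfl1 1455138_x_at was at 7735 in replicate 1 (next highest 5522). In C57 mice of 4 weeks, Flna 1426677_at was at 804 in replicate 1 (next lowest 1169).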

How the results depend on the processing

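Member counts between strains were 6 to 8 at 2 weeks and 6 to 7 at 4 weeks over all settings and left-out mice. No member was called for age or for a strain difference in its age change under any of them, except that Lcp1 1415983_at was called in NON by the ordinary test per probe set (count 1). Over those settings the signs of the strain differences held on both probe sets of Cap1 and of Capg, on Gsn 1437171_x_at and 1456312_x_at and on Lcp1 1415983_at. Sizes moved by more than the spread between mice for Cap1 1417462_at with a pseudocount of 50 (4.47 and 4.07), for Gsn 1456312_x_at with a pseudocount of 1 at 2 weeks (-4.89) and of 50 (-3.38 and -2.82) and for Lcp1 1448160_at at 4 weeks without the 4 mice of lower quality (-0.0028, no difference), a setting chosen after seeing the data.

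Counts of the actin list were small and moved more. Between strains at 2 weeks, 3 genes were called with a pseudocount of 50, with a filter at a signal of 100 and with the ordinary test, 2 without the 4 mice, and 0 with the most variable probe set of each gene, and with single mice left out 0 to 2. At 4 weeks, 3 were called with a pseudocount of 50 and with the ordinary test, 2 with a filter at 100, with quantile normalization and with the most variable probe set, 0 without the 4 mice, and 0 to 2 with single mice left out. Age changes in NON came to 4 with a pseudocount of 50 or a filter at 100, 2 with quantile normalization, 6 with the ordinary test, 0 without the 4 mice or when only mice of the strain were fitted, and 0 to 6 with single mice left out. In NOD there were 0 with no filter, without the 4 mice and with only the strain's mice, and 0 to 1 with single mice left out. In C57 there were 0 with only the strain's mice, 1 with the most variable probe set and 1 to 2 with single mice left out. The cause of these moves was not tested.

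Replicate numbers did not pair the mice: deviations of same-numbered mice correlated at 0.0304 on average (-0.149 to 0.187, 8 of 75 pairs over 0.1). With the replicate number as a block, 6 member probe sets were called at 2 weeks (Capg 1447803_x_at was lost) and 6 at 4 weeks. With age, 0 members were called, and 2 genes of the list were called in NON.

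The limits are these. Signals under 50 were read as background without detection calls. Probe sets of 1 gene gave different strain differences for Gsn, Capg and Lcp1. Whether their probes read the RNA of each strain equally well was not tested. Some marker signals of spleen cell types varied with strain and age, and cell numbers were not measured. There were 5 mice in a group.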
